A study of Mus musculus with 25 samples.

Results

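Cluster 2 is 1 of 16 clusters into which the authors divided the myeloid cells of the injured mouse spinal cord, and it was marked by metallothionein transcripts and a low number of molecules per cell. Its members were taken as every cell with the deposited cluster code 2, joined by barcode to the raw counts of its library. They numbered 1924 of 30958 cells in 25 libraries. The clusters carry codes and no names, so the cells are called cluster 2 throughout. The clustering was done on the expression of these same cells, so the genes that set the cluster apart from other cells are given as a description, without a test.

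The study profiled YFP-positive myeloid cells sorted from a 5 mm segment of mouse spinal cord around a lesion, by droplet-based 3′ single-cell RNA sequencing. Cords were taken 1, 2, 3, 10 or 21 days after the injury (D1 to D21) or after laminectomy alone (Ctrl), the operation that opens the vertebral bone without injuring the cord. Each library pooled tissue from 1 to 3 mice, so the library is the unit of replication, and p-values measure the spread between libraries. All mice carried Cx3cr1CreERT2, a tamoxifen-inducible Cre at the locus of Cx3cr1, the fractalkine receptor gene of microglia and many monocytes, and the lineage labels therefore follow only cells in which that locus was active. The 12 mixed libraries held all YFP+ cells of Cx3cr1CreERT2 mice that lacked the R26tdTomato reporter. The other 13 libraries came from Cx3cr1CreERT2:R26tdTomato mice, in which Cre switches on a red fluorescent protein (RFP). In those mice RFP+/YFP+ cells were sorted as resident and RFP-/YFP+ cells as infiltrating. The mixed sort therefore coincides with the strain without R26tdTomato, and the effects of these cannot be told apart. The resident and infiltrating libraries share a strain. For 1 library at D3 the labels conflict, with infiltrating in its title and RFP+/YFP+ as its sort. This library, D3_conflict 1, entered no comparison. The ages of the mice are not given in the sources used here.

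Metallothioneins are small cysteine-rich proteins that hold zinc and copper. Mt1 and Mt2 are transcribed in most tissues and are induced by metals through the transcription factor MTF-1, and also by oxidants and glucocorticoids, while Mt3 is the brain form, made mainly by astrocytes and neurons. In the injured nervous system metallothioneins are known as early stress-response genes of glia and macrophages.

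The promoters of the leading genes are printed because metals and low oxygen are known to act on them through short motifs. The 250 bases before the RefSeq start on GRCm38.p6 lie at chr8:94178839-94179088 for Mt1 and chr8:94172368-94172617 for Mt2, both on the plus strand. Those of Bnip3 lie at chr7:138909507-138909756 on the minus strand. Bnip3 encodes a mitochondrial protein of mitophagy that is transcribed under low oxygen. Capitals mark the core of the metal response element, TGCACNC or TGCGCNC on either strand, in Mt1 and Mt2. In Bnip3 they mark the core of the hypoxia response element, ACGTG or GCGTG on either strand.
Mt1: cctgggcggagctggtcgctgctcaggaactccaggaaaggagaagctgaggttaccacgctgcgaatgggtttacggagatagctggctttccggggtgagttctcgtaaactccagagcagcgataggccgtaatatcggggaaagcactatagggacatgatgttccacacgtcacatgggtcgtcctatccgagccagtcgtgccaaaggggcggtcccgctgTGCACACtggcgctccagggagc
Mt2: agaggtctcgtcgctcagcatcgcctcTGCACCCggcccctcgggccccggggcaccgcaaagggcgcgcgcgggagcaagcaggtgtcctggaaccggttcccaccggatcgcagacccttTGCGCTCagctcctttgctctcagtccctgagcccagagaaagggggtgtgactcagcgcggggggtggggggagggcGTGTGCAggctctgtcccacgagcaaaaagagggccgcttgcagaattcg
Bnip3: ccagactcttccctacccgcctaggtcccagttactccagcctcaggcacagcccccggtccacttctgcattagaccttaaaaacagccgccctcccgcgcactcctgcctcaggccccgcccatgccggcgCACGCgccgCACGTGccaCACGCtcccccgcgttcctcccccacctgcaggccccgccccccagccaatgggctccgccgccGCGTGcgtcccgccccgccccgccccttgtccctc
The Mt1 window held 1 metal core match, at bases -23 to -17 from the start, and 2 hypoxia core matches. The Mt2 window held 3, of which the one on the minus strand overlapped a GCGTG. The Mt3 window held 0 matches of either kind. The Bnip3 window held 5 matches, including the palindrome CACGTG, which counts once on each strand. Among 32851 promoter windows of the same length, 21.4% held a metal core and 38.6% held a hypoxia core. The matches describe the letters of these windows only. No base past the RefSeq start was searched, so elements there are not counted.

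The cluster spanned 2 deposited cell type codes. Code 1 held 1801 of its cells (93.6%) and code 2 held 123 (6.39%). Over all cells of a code, 12 of 12 microglia markers in code 1 and 9 of 12 macrophage and monocyte markers in code 2 reached 20 CPM (UMIs of a gene scaled to a fixed total of all UMIs) with at least 2 times the level of all remaining cells. Outside cluster 2, code 1 cells of the 14 libraries described below carried the microglial receptor gene P2ry12 at 285 CPM. Code 2 cells there carried P2ry12 at 9.9 CPM and the macrophage lysozyme gene Lyz2 at 22676 CPM. The median number of molecules (UMIs) per cell in cluster 2 was 1880 in code 1 and 1742 in code 2. The same medians were 3335 and 9188 in the other cells of the same codes. The median number of detected genes was 833, against 1975.5 in all other cells. Among the 16 clusters only cluster 14 had a lower median UMI count, 1488 against 1876.

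The mitochondrial percent did not stand at 1 end of its range in these cells. Its median was 0.556% in the code 1 cells and 0.285% in the code 2 cells of cluster 2, and 0.744% and 1.01% in the other cells of those codes. The ends of the range were as follows. No mitochondrial UMI was counted in 388 cells (20.2%), against 6.78% of other cells and 10.8% of other code 1 cells, which are deeper. Thinned to 700 UMIs in the 14 libraries described below, the share was 29.0%, against 22.9% of other code 1 cells, and it was the higher in 12 of the 14. More than 5% of UMIs were mitochondrial in 160 cells (8.32%), against 2.28% of other cells and 4.88% of other code 1 cells. Of these, 110 lay in D1_mixed 3 (13.1% of its cluster 2 cells) and D3_resident 2 (20%), 5 of the 14 libraries had 0, and the share was above that of the library's other code 1 cells in 6. All 160 were of code 1, where the highest value was 19.8%, while the highest in code 2 was 4.59%.

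Cluster 2 was spread unevenly over the libraries. No cell of the 2 Ctrl libraries had this code (0 of 1429, which allows a share of up to 0.21%, and 0 of 458, up to 0.655%), but all 1887 Ctrl cells carry cluster code 1, and no other cell does. The D1 libraries held 960 of the cells, and a single library, D1_mixed 3, held 625 (32.5% of the cluster). Cluster 2 made up 45.4% of that library's 1377 cells, against 15.2% of D1_mixed 1, 15.3% of D1_mixed 2, 0.712% of D1_infiltrating 1 and 0.397% of D1_infiltrating 2. At D3 the share was 17.4% in D3_mixed 1, 18.5% in D3_mixed 2 and 13.2% in D3_resident 2, but 1.32% (48 of 3628 cells) in D3_mixed 3, 6.92% in D3_resident 1 and 0.103% in D3_infiltrating 1. At D10 it lay between 6.57% and 11.5% in 4 libraries and was 0.658% in D10_infiltrating 1, and it was 10.4% in D21_mixed 1. The share also varied by sort. The median share was 12.4% over mixed, 7.95% over resident and 0.658% over infiltrating libraries. The infiltrating libraries held 67 of the cells, 13 of them among the 155 cells of D21_infiltrating 1 (8.39%) and 21 among the 183 cells of D10_infiltrating 2, whose 11.5% was the highest share of the D10 libraries. At D2 the share was 14% in D2_mixed 1, 0.928% in D2_mixed 2, 7.95% in D2_resident 1 and 0.252% in D2_infiltrating 1, so mixed libraries also ranged widely.

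**Figure D1:**
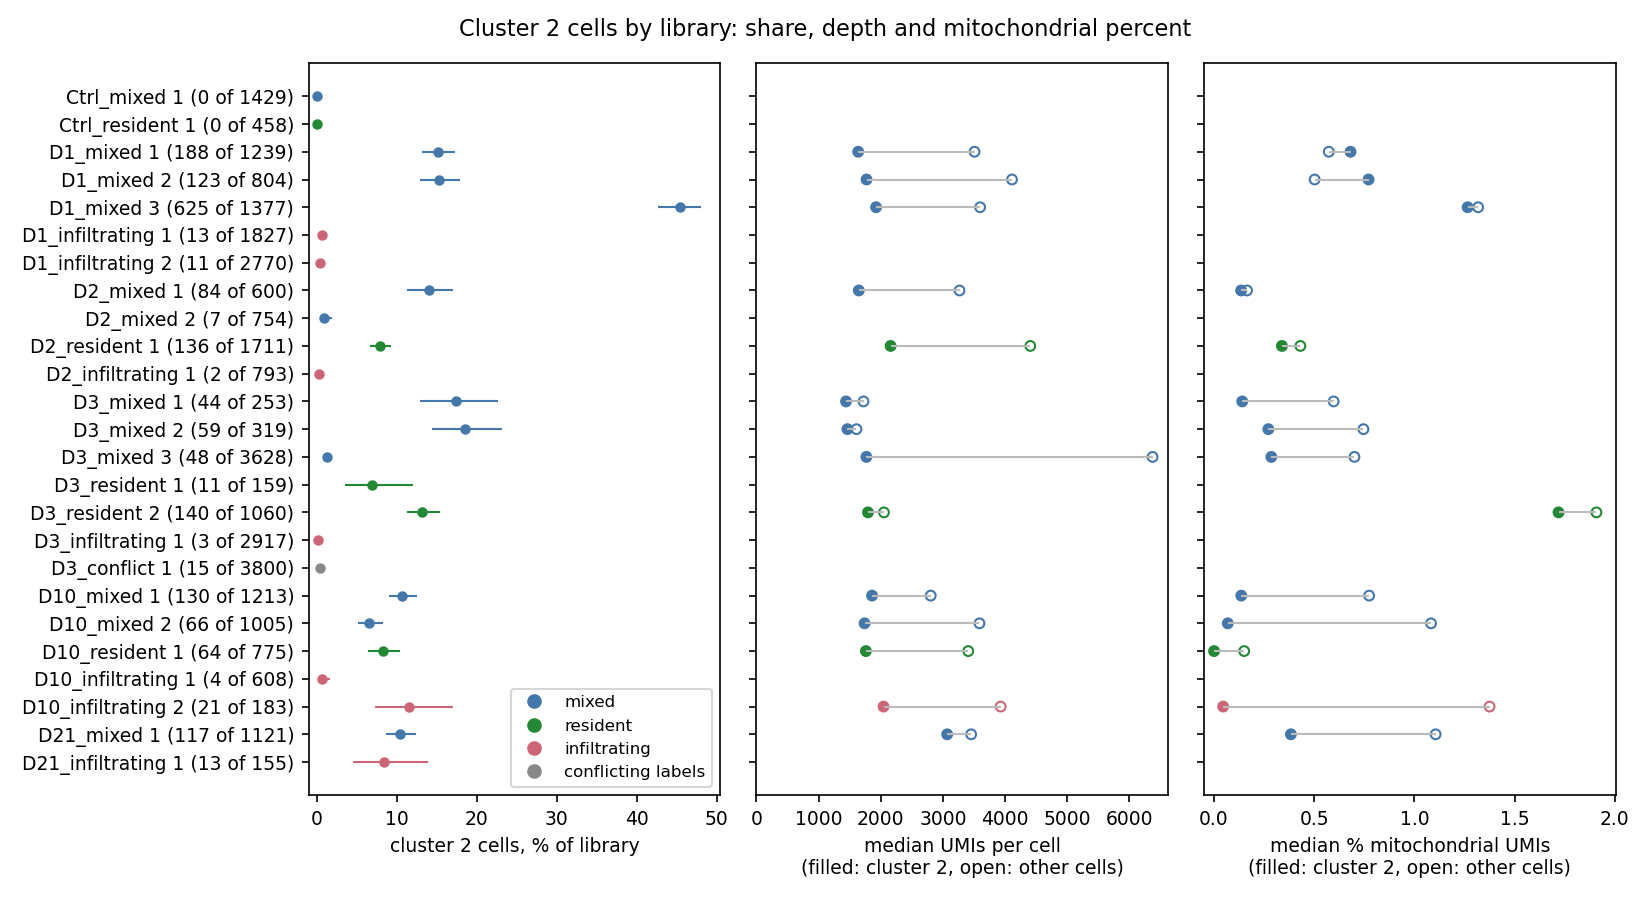
Cluster 2 by library. The panels plot, for each library, the share of its cells with cluster code 2 in percent, the median UMI count per cell and the median mitochondrial percent (filled points for cluster 2, open points for the other cells of libraries with 20 or more cluster 2 cells), coloured by sort. D1_mixed 3 lies far to the right in share at 45.4%, and the filled points of the UMI panel lie left of the open ones in all 14 libraries.

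The 14 libraries with at least 20 cluster 2 cells held 1845 of them and carry all comparisons within libraries. Levels per cluster, and shares of cluster 2 cells with a UMI, are over all 1924 cells. The cluster 2 median UMI count per library ranged from 1442 to 3069 and was 0.278 to 0.909 times that of the library's other cells (median 0.519). It was lower in every library, least so in D3_mixed 2 (1464 against 1610) and D21_mixed 1 (3069 against 3454.5). Code 1 made up 95.2% to 100% of the cluster in 11 libraries. The exceptions were D10_infiltrating 2 (85.7% of 21 cells), D2_mixed 1 (73.8% of 84) and D3_mixed 3 (37.5% of 48). D3_mixed 3 also stood apart by its small share, so results that rest on it are given without it. Libraries shared 127 cell barcodes, which covered 254 cells, 15 of them in cluster 2.

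Mt1 was the gene with the most UMIs among the 7 marker genes, and cluster 2 had the highest Mt1 level of all 16 clusters. Summed over its cells it was 2506 CPM, followed by 950 CPM in cluster 5. Mt2 (352 CPM), Mt3 (59.0 CPM), Npy (159 CPM), a neuropeptide gene, and Mbp (186 CPM), the myelin basic protein gene of oligodendrocytes, were likewise highest in cluster 2. D1_mixed 3 set much of these levels. Without it Mt1 was at 1327 CPM, Mt2 at 101 CPM, Mt3 at 77.6 CPM and Mbp at 215 CPM, all still the highest, while Npy was at 23.5 CPM, below the 40.7 CPM of cluster 9. The inflammatory chemokine genes Ccl3 (926 CPM) and Ccl4 (1251 CPM) were higher in clusters 14 and 16. All 3 metallothionein genes with counts had a mean log2 ratio above 0 against other cells, and Mt4 had 0 counts.

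Within each library, Mt1 was at 2286, 1478 and 4942 CPM in the cluster 2 cells of D1_mixed 1, 2 and 3, and at 618, 627 and 2741 CPM in their other cells. At D2 it was at 1397 CPM in D2_mixed 1 and 1652 CPM in D2_resident 1, against 453 and 460. At D3, D3_mixed 1, D3_mixed 2 and D3_resident 2 had Mt1 at 1395, 2350 and 1305 CPM against 767, 736 and 428, while D3_mixed 3 had 462 against 407. From D10 on, Mt1 lay between 586 and 1259 CPM in cluster 2 and between 297 and 520 CPM in other cells. Cluster 2 was thus the higher in all 14 libraries, by a mean log2 ratio of 1.22 ± 0.47 (SD, n = 14, 5 CPM added to both), with D3_mixed 3 the narrowest. Of 4456 genes at 20 or more CPM in cluster 2, 140 (3.14%) were higher in every library and 163 (3.66%) were lower in every library.

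Mt2 had the highest level in D1_mixed 3, 872 CPM in cluster 2 against 472 in other cells, and it was at 229 and 145 CPM in the cluster 2 cells of D1_mixed 1 and 2. From D10 on, Mt2 was between 0 and 39.2 CPM in cluster 2. It was higher than in other cells in 13 libraries, with a mean log2 ratio of 1.10 ± 0.88 (SD, n = 14). D10_infiltrating 2 was the exception, with 0 against 1.91 CPM. Mt3 was the least even of the 3, higher in 9 libraries and at 0 CPM in 4, among them the 3 mixed libraries at D3. Together the metallothionein genes took 0.0473% to 0.583% of cluster 2 UMIs per library (median 0.153%), against 0.0306% to 0.322% in other cells. Against code 1 cells alone, code 1 on both sides, the mean log2 ratios were 1.15 for Mt1, 0.87 for Mt2 and 1.03 for Mt3.

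The share of cells with a metallothionein UMI was compared at equal depth. With every cell thinned to 700 UMIs, 54.4% of cluster 2 cells had at least 1 Mt1 UMI, against 28.8% of the other code 1 cells of the same libraries. The code 4 cells, called neutrophil-like because 8 of 8 neutrophil markers reached 20 CPM there with a level at least 2 times that of all remaining cells, showed 7.14% at a median depth of 2154 UMIs, against 1876 in cluster 2 and 3098 in the other code 1 cells. Unthinned, the shares were 74.7%, 62.6% and 15.5%. The top 10% of cluster 2 cells held 58.0% of its Mt1 UMIs, and the highest cell had 305. The same share was 52.7% in other code 1 cells. For Mt2 the thinned shares were 14.4% and 3.60%, with 0.189% in the neutrophil-like cells. Without D1_mixed 3 they were 5.62% and 2.32% for Mt2, and 44.2% and 26.1% for Mt1.

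Npy and Mbp came from still fewer cells. Npy was seen in 2.86% of thinned cluster 2 cells, 0.467% of other code 1 cells and 0.0473% of neutrophil-like cells, and 1 cluster 2 cell held 90 Npy UMIs. Without D1_mixed 3 the Npy share was 1.00% in cluster 2 and 0.276% in other code 1 cells. The top 10% of cells held all of them. Mbp was seen in 8.06% of cluster 2 cells and 3.25% of other code 1 cells. Neutrophil-like cells, which do not make myelin, showed it in 4.77%. The source of these Mbp UMIs was not tested. Within libraries the cluster 2 share of Mbp was 2.27%, 1.69% and 2.08% in D3_mixed 1, 2 and 3 and 0% in D10_resident 1. Each of these was below the share in the library's other code 1 cells. In the other 10 the cluster 2 share was 5.13% or more, each above that of the library's other code 1 cells. Mbp was higher in cluster 2 in 12 of 14 libraries (mean log2 ratio 1.32 ± 1.12, SD, n = 14). Its cluster 2 level ran from 11 CPM in D3_mixed 3 to 629 CPM in D1_mixed 1.

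**Figure D2:**
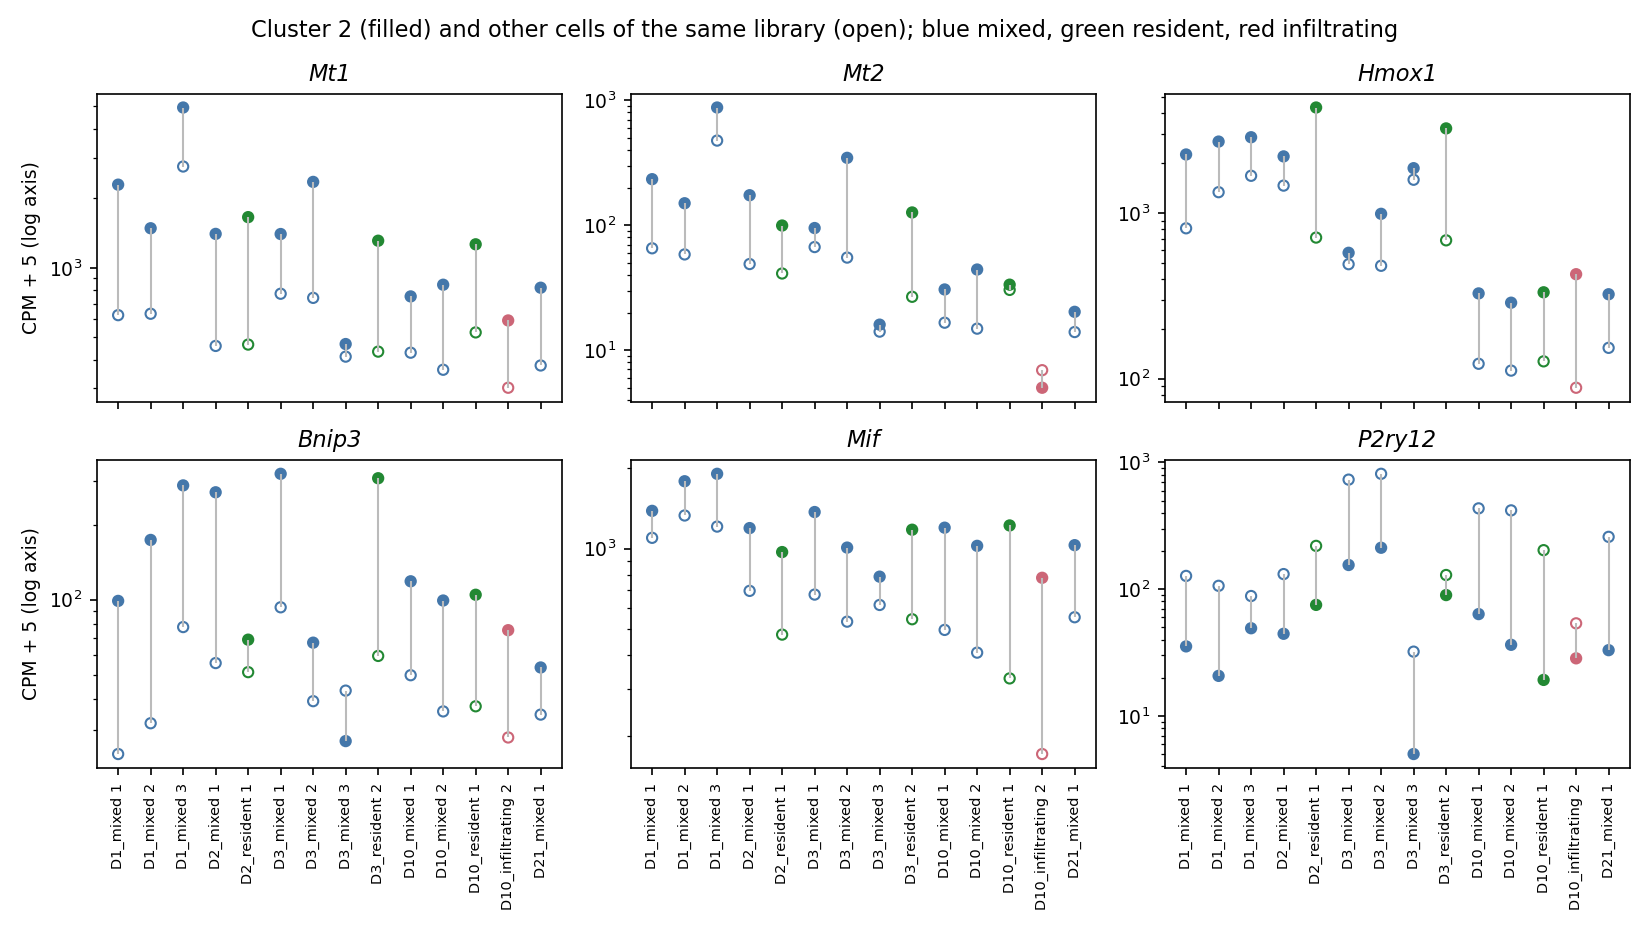
Levels of Mt1, Mt2, Hmox1, Bnip3, Mif and P2ry12 in each of 14 libraries, as CPM + 5 on a log axis. Filled points are the summed cluster 2 cells and open points the summed other cells of the same library. Mt1, Hmox1 and Mif have the filled point on top in all 14 libraries and P2ry12 has it below in all 14.

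The zinc and redox list as a whole had 7 of 12 genes with a mean log2 ratio above 0 and 5 below, with a median of 0.13, where 45.4% of all 4456 genes were above 0. The members named here are described singly. Hmox1, which encodes the haem-degrading enzyme haem oxygenase, was higher in cluster 2 in all 14 libraries (mean log2 ratio 1.27 ± 0.73, SD). Its level ran from 282 CPM in D10_mixed 2 to 4328 CPM in D2_resident 1, against 107 and 706 CPM in their other cells. The ferritin chain genes showed the same side. Fth1 was higher in all 14 libraries (0.98 ± 0.37) and Ftl1 in 13 (1.03 ± 0.53). Srxn1, which repairs oxidised peroxiredoxins, was higher in 13 libraries (1.01 ± 0.83). Slc30a1, the zinc exporter gene that MTF-1 also drives, had a mean log2 ratio of -0.60 ± 0.84.

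Genes of low oxygen and sugar breakdown lay mostly on the higher side, 13 of 14 by mean ratio, with a median of 0.54 against -0.05 over all 4456 genes, of which 45.4% were higher by mean ratio. Bnip3, whose promoter is shown above, was at 315 CPM in D3_mixed 1, 302 in D3_resident 2 and 282 in D1_mixed 3, against 88.1, 54.4 and 72.5 CPM in their other cells. It was higher in 13 libraries (1.40 ± 0.87, SD), the exception being D3_mixed 3 (22 against 38.1 CPM). The glycolytic enzyme genes Pgk1 and Gapdh were higher in all 14 libraries (0.84 ± 0.26 and 0.72 ± 0.44). Egln3, a prolyl hydroxylase that marks HIF for decay, was higher in 12 (1.02 ± 1.08). Slc2a1, the glucose transporter gene, was at a mean of 0.00 ± 0.93. Outside the list, Fam162a was higher in all 14 libraries, at 1.14 ± 0.37, with the smallest SD among the 15 genes of largest ratio. Mif, the macrophage migration inhibitory factor gene, was higher in 14 of 14 as well, with 774 to 1898 CPM in cluster 2 and 166 to 1325 CPM in other cells (1.01 ± 0.54).

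Microglial identity genes were on the low side, 12 of 12 by mean ratio, with a median of -1.31 (54.6% of all genes were lower by mean ratio). P2ry12 was between 0 CPM in D3_mixed 3 and 207 CPM in D3_mixed 2 in cluster 2, and between 27.1 and 808 CPM in other cells. Cluster 2 was the lower in all 14 libraries (-2.08 ± 0.94, SD). P2ry13 and Olfml3 were also lower in every library. With code 1 cells on both sides the list's median was -1.75 and that of P2ry12 -2.65, so the gap was as large within the microglial code. Thinned to equal depth, 2.81% of cluster 2 cells and 16.1% of other code 1 cells had a P2ry12 UMI, against 1.80% of neutrophil-like cells. Macrophage and monocyte genes had a median of -1.27 against all other cells and 0.24 against code 1 cells.

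The digestive and complement genes of microglia followed. The 12 lysosome genes were all lower by mean ratio (median -0.82), and the cathepsin gene Ctss, Ctsz, the protease gene Lgmn and the saposin precursor gene Psap were lower in every library. The 10 complement and Fc receptor genes were all lower by mean (median -0.87), with C1qa, C1qb, Fcgr2b and the integrin gene Itgam lower in every library. C1qa was at 2025 to 5235 CPM in cluster 2 against 2808 to 12352 in other cells. All 13 mitochondrially encoded transcripts were lower by mean ratio too (median -0.68), each with exceptions among the libraries. At the bottom were histone genes of dividing cells, Hist1h1b at -2.85 and Hist1h2ap at -2.82, and the cell cycle list had a median of -1.58. Chil3 (-2.27) and the antigen presentation genes Cd74 (-2.12), H2-Aa (-2.08) and H2-Eb1 (-1.92) were low against all other cells, but with code 1 on both sides they were at 0.22, -0.31, 0.15 and 0.01.

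The 12 genes of the injury-associated microglial program split, 4 higher and 8 lower by mean ratio. Fabp5, a fatty acid binding protein gene, and Lgals3, the galectin-3 gene, were the ones well above 0, at 1.20 ± 1.04 and 1.18 ± 0.77 (SD). Against code 1 cells they were at 2.23 and 2.22, higher in 14 of 14 libraries. Code 2 cells outside the cluster had far more Fabp5 than any of these, 11097 CPM, against 1215 CPM in code 1 cells of cluster 2 and 380 CPM in other code 1 cells. The lipid carrier gene Apoe (-1.35) and the lipid receptor gene Trem2 (-0.91, lower in all 14) lay on the other side.

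Transcripts of other cord cells were present at low levels. Of 12 oligodendrocyte genes 11 had a mean ratio above 0 (median 0.27), and their summed level was 154 to 1633 CPM per library in cluster 2 (median 579), against a median of 588 CPM in other cells. None of the 12 was at 0 counts in the cluster. Of 10 astrocyte genes 8 were above 0 by mean (median 0.46), led by S100b (1.14, 11 libraries), with a summed level of 18.4 to 557 CPM. The endothelial list had a median summed level of 0 CPM with 5 of 10 genes at 0 counts, and the fibroblast list reached at most 7.37 CPM, with 4 of 6 at 0. The part of these transcripts in the results for Mbp and Mt3 was not tested.

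**Figure D3:**
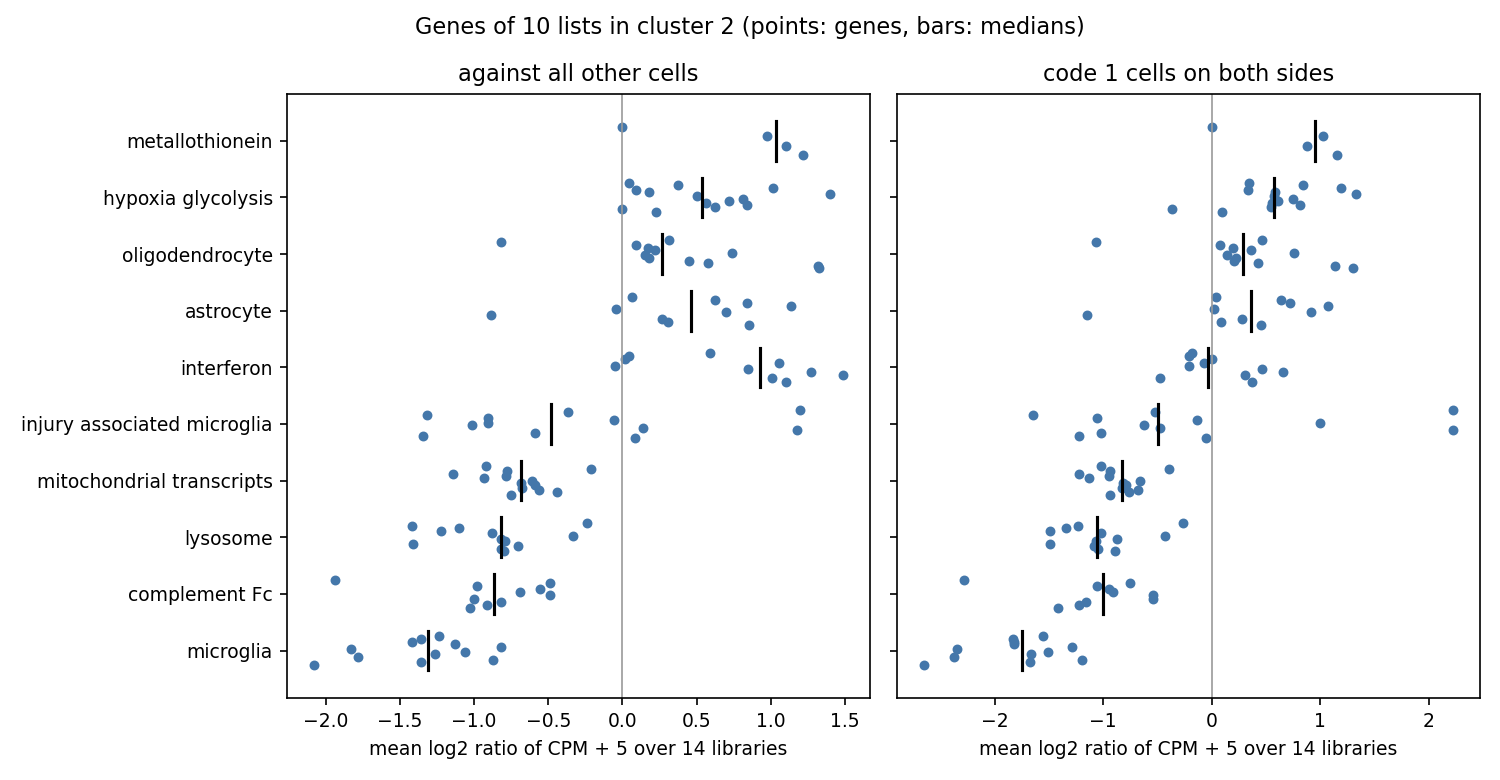
Mean log2 ratio of CPM + 5 between cluster 2 and other cells over 14 libraries, for each gene (points) of 10 lists, with list medians (bars). The left panel uses all other cells and the right panel code 1 cells on both sides. The metallothionein and hypoxia bars lie right of 0 and the microglia, lysosome and complement bars left of 0 in both panels, while the interferon bar moves from 0.93 to -0.03.

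Interferon-stimulated genes were higher in the code 2 cells than in the code 1 cells of cluster 2. Of 10 such genes 9 had a mean ratio above 0 (median 0.93), but with code 1 on both sides the median was -0.03. Over the 14 libraries, Isg15, a ubiquitin-like modifier gene, was at 2612 CPM in the 91 code 2 cells of cluster 2 and 150 CPM in the 1754 code 1 cells. Other code 2 and code 1 cells had Isg15 at 126 and 116 CPM. Rsad2, which encodes the antiviral enzyme viperin, was at 1380 CPM against 22, 48.5 and 18.1 CPM in the same order. Thinned to 700 UMIs, 47.3% of the code 2 cells of cluster 2 had an Isg15 UMI (exact 95% interval 36.7% to 58.0%), against 6.39% of its code 1 cells. The chemokine gene Cxcl10, an interferon target, was at 2736 CPM in code 2 and 45.3 CPM in code 1 of the cluster.

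These code 2 cells came from several libraries. In the 4 with the most of them, D1_mixed 1 (9 cells), D1_mixed 3 (15), D2_mixed 1 (22) and D3_mixed 3 (30), their Isg15 level was 1967, 3439, 741 and 2149 CPM. All 4 values exceeded the 126 CPM of other code 2 cells. That level is pooled over the 14 libraries, so library and time are not matched. Their Mt1 level was less even, with 743, 6825, 593 and 347 CPM. Only D1_mixed 3 was above the 2620 CPM of the code 1 cells of cluster 2. That level is also pooled over libraries, and D1_mixed 3 held 610 of the 1754 code 1 cells. In D3_mixed 3 the code 2 cells also carried Cd74 at 16430 CPM and H2-Aa at 3041 CPM, against at most 399.9 and 43.7 CPM in the other 3 libraries. Ccl3 and Ccl4 had mean log2 ratios of 0.39 and 0.47 against all other cells, but -0.12 and -0.24 with code 1 on both sides, and Cxcl10 went from 1.44 to -0.73.

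**Figure D4:**
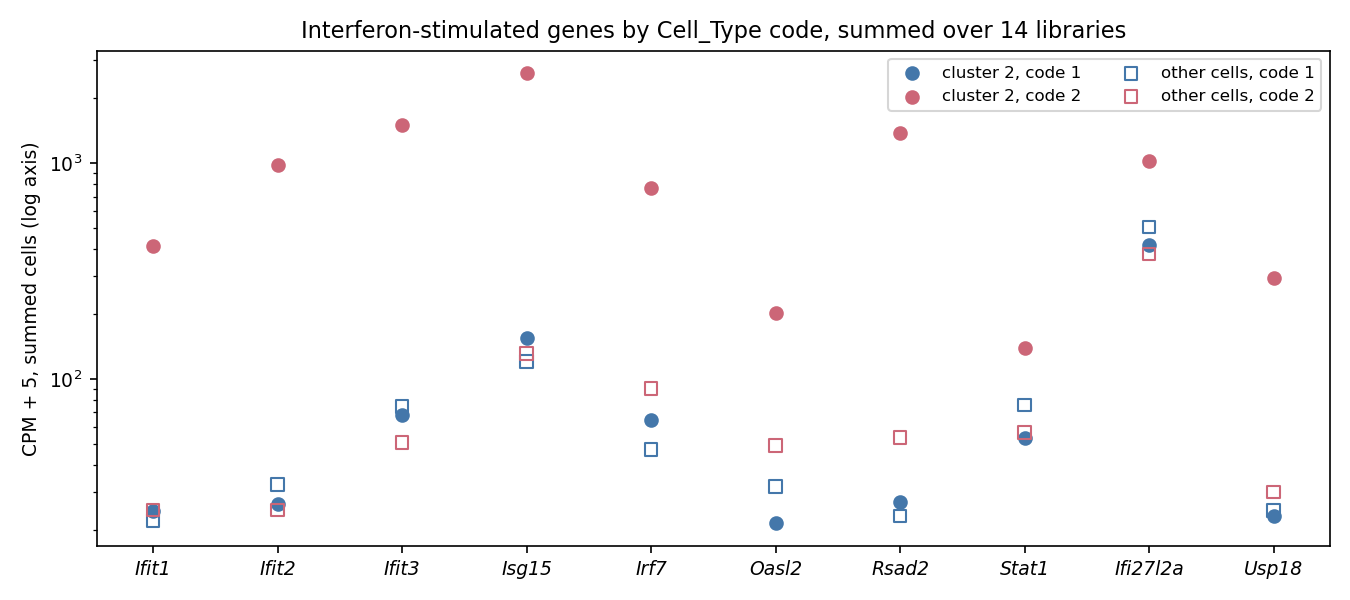
Levels of 10 interferon-stimulated genes, as CPM + 5 on a log axis, in the summed cells of code 1 (blue) and code 2 (red) inside cluster 2 (filled) and outside it (open squares), over 14 libraries. The filled red points of Isg15, Rsad2, Ifit1, Ifit2, Ifit3 and Irf7 lie far above the other 3 points of each gene.

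The time course within cluster 2 was tested on counts summed per library with edgeR's quasi-likelihood test and Benjamini-Hochberg adjustment, over 4965 genes. The 3 D1 libraries came from 1 sequencing pool and the 4 D3 libraries from others, so time cannot be told apart from pool there. Between D1 and D3, 122 genes passed an adjusted p of 0.05 (2.46% of those tested), 45 higher (0.906%) and 77 lower (1.55%) at D3. Scaling by median of ratios gave 51 higher and 47 lower in place of that split. The count was 48 without D1_mixed 2, 48 without D1_mixed 3, 66 without D1_mixed 1, 74 without D3_mixed 1, 67 without D10_mixed 1, 79 without D2_resident 1 and 334 without D3_mixed 3.

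Of 11 tested chemokine genes, 4 fell (1.55% of all genes did) and 0 rose, with a median log2 change of -2.51, against -0.03 over all genes. Ccl6 was at 1545, 1934 and 917 CPM in the 3 libraries at D1 and at 206, 119, 276 and 83.3 CPM in the 4 at D3, in CPM scaled by TMM factors. The groups did not overlap. Ccl6 fell by 3.05 on the log2 scale (SE 0.35, edgeR adjusted p 0.0005), and Ccl9 by 2.51 (SE 0.30, adjusted p 0.0007). Ccl5 and Ccl12, attractants of T cells and monocytes, fell by 3.41 and 3.28 (edgeR adjusted p 0.0189 and 0.0404). Ccl5 was high in 1 library at D3, D3_mixed 2 with 217 CPM. Ccl3 (-2.39, adjusted p 0.081) and Ccl4 (-2.67, adjusted p 0.0551) did not pass.

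Npy and the neutrophil chemokine gene Cxcl3 were counted at D1 and had 0 counts at D3. Npy had 637 UMIs in 75 of 936 D1 cells, and 597 of them lay in D1_mixed 3. All 4 libraries at D3 had 0, as had D10_infiltrating 2 and D21_mixed 1, while 2 to 6 UMIs were counted in the other 3 libraries at D10. Npy was lower at D3 (edgeR adjusted p 0.0189). Its pooled D1 level was 56.4 times a limit of 3 counts over the D3 libraries, and 11.3 times without D1_mixed 3. Cxcl3 had 194 UMIs in 50 D1 cells and 0 in every library after D1. It was lower at D3 (edgeR adjusted p 0.0288), and its pooled D1 level was 17.2 times that limit. The limit takes UMIs as independent, while those of both genes lay in few cells, so these folds are not lower bounds.

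Of the 11 tested injury-associated genes, Apoe and Gpnmb rose and Lpl fell, where 0.906% of all tested genes rose and 1.55% fell. Apoe, which encodes a lipid carrier, was at 723, 1084 and 1729 CPM at D1 and at 7477, 6208, 5942 and 3967 CPM at D3, without overlap. It rose by 2.59 on the log2 scale (SE 0.40, edgeR adjusted p 0.0028). The lipoprotein lipase gene Lpl was at 886, 1123 and 648 CPM at D1 and at 110, 198, 59.9 and 159 CPM at D3, again without overlap. It fell by 2.62 (SE 0.35, adjusted p 0.0016). Gpnmb, a glycoprotein gene of lipid-laden phagocytes, rose from a mean of 11.7 to 293 CPM (log2 change 4.99, SE 0.69, adjusted p 0.0017). D3_mixed 3 had the highest Gpnmb level, 707 CPM, and without it the D3 mean was 156 CPM and the change 4.24 (adjusted p 0.000639). Hacd4, an enzyme gene of fatty acid elongation, rose from 2.76 to 78.5 CPM (5.23, SE 0.78, adjusted p 0.0025), with a D3 mean of 48.8 CPM and a change of 4.69 without D3_mixed 3 (adjusted p 0.0020).

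The calls in the other lists stand beside the 0.906% of all tested genes that rose and the 1.55% that fell. The cathepsin gene Ctsl fell by 1.88 (SE 0.28, edgeR adjusted p 0.0025) and the hexosaminidase gene Hexa rose by 1.06 (adjusted p 0.0404), the only ones of 12 lysosome genes to pass. The AP-1 subunit gene Jund fell by 1.53 (adjusted p 0.0066) and the transferrin gene Trf by 2.08 (adjusted p 0.0027). Gapdh, 1 of 12 tested genes of low oxygen and sugar breakdown, fell by 1.03 (adjusted p 0.0491). Pmp22, of a Schwann cell list, fell by 1.55 (adjusted p 0.0404). Birc5, 1 of 5 tested cell cycle genes, rose by 4.53 (adjusted p 0.0236). Of 5 tested heat shock genes, Hspb1 fell by 3.91 (adjusted p 0.0132) and Hspd1 by 1.41 (adjusted p 0.0230). The complement receptor genes C5ar1 and Itgam fell by 1.43 and 2.29 (adjusted p 0.0204 and 0.0197). Ifi27l2a, 1 of 10 interferon genes tested, rose by 3.07 (adjusted p 0.0080), and Lyz2 rose by 2.84 (adjusted p 0.0404). Lyz2 was at 7931 CPM in D3_mixed 3, and without that library its change was 1.75 and did not pass (adjusted p 0.0705). H2-Aa and H2-Eb1 passed with log2 changes of 6.92 each (adjusted p 0.0250 and 0.0254). They rest on D3_mixed 3, with 2216 and 1533 CPM there, and without it their changes were 0.72 and 0.87 and did not pass.

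Metallothionein genes did not pass: 0 of 3 in either direction, with a median log2 change of -1.51. Mt1 had a mean of 3286 CPM at D1 and 1341 CPM at D3 (log2 change -1.36, SE 0.43, edgeR adjusted p 0.102), with the highest D3 library, 2244 CPM, above the lowest D1 library, 1661 CPM. Mt2 was at -1.66 (adjusted p 0.191) and Mt3 at -1.51 (adjusted p 0.516). Mbp (-1.60, adjusted p 0.375) and Hmox1 (-1.16, adjusted p 0.110) did not pass either. None of the 13 mitochondrial transcripts passed, at a median of -1.34.

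Between D3 and D10, 23 genes passed (0.463% of 4965), 16 higher (0.322%) and 7 lower (0.141%) at D10. D10_infiltrating 2 is the only infiltrating library in the fit, so the sort term fits it exactly. The tested changes therefore rest on the other D10 libraries, and its values are shown for description. Leaving out D10_mixed 1 left 3 genes and leaving out D10_mixed 2 left 4, and the count was 5 without D1_mixed 2, 7 without D2_resident 1, 8 without D1_mixed 1, 10 without D3_mixed 2, 14 without D2_mixed 1, 15 without D3_mixed 1 and 87 without D3_mixed 3. Apoc4, Apoc1 and Cst7 had the largest rises. Apoc1 was at 68.6, 89.0, 24 and 68.1 CPM at D3 and at 1095, 1210, 255 and 88.7 CPM at D10, the last value being that of D10_infiltrating 2, which fell just inside the D3 range. It rose by 3.44 on the log2 scale (SE 0.43, edgeR adjusted p 0.0009). Apoc4, of the same apolipoprotein gene cluster, rose by 4.20 (SE 0.53, adjusted p 0.0036), from 0 to 13.7 CPM in the D3 libraries to 92.2 to 207 CPM at D10, without overlap.

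Cst7, a cystatin gene of activated microglia, was at 247, 138, 83.9 and 75.7 CPM at D3 and at 839, 971, 979 and 111 CPM at D10. Only D10_infiltrating 2 overlapped with D3. It rose by 2.87 (SE 0.35, edgeR adjusted p 0.0009). With Cst7, Clec7a (2.31, adjusted p 0.0395) and Lpl (1.83, adjusted p 0.0300) made up 3 of 11 tested injury-associated genes that rose, and 0 fell (list median 1.12, against -0.06 over all genes, of which 0.322% rose and 0.141% fell). Lpl, Trf (1.98, adjusted p 0.0113), Ccl6 (1.89, adjusted p 0.0300) and Jund (1.34, adjusted p 0.0395) rose between D3 and D10. Sparc was at -1.37 between D1 and D3 (adjusted p 0.0100) and at 1.27 between D3 and D10 (adjusted p 0.0395). Outside the gene lists, Cst3 was at -3.39 between D1 and D3 (edgeR adjusted p 1.63e-05) and at 1.32 between D3 and D10 (adjusted p 0.0395). Lpl, Trf, Ccl6, Jund, Sparc and Cst3 all fell between D1 and D3. Both comparisons use the same D3 libraries, so a low level there enters both, and the pair of changes is not independent.

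Hmox1 fell. It was at 521, 939, 2025 and 3324 CPM at D3 and at 337, 287, 326 and 399 CPM at D10, without overlap. The log2 change was -2.32 (SE 0.40, edgeR adjusted p 0.0241), and Hmox1 was the sole member of the 8 tested zinc and redox genes to pass. Rcan1, a calcineurin inhibitor gene, and the selenoprotein gene Selenoh fell by 2.15 and 1.70 (adjusted p 0.0395 for each). The 7 marker genes did not pass. Mt1 was at a mean of 861 CPM at D10 (log2 change -0.53, adjusted p 0.722) and Mt2 at 23.7 CPM (-2.19, adjusted p 0.340).

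**Figure D5:**
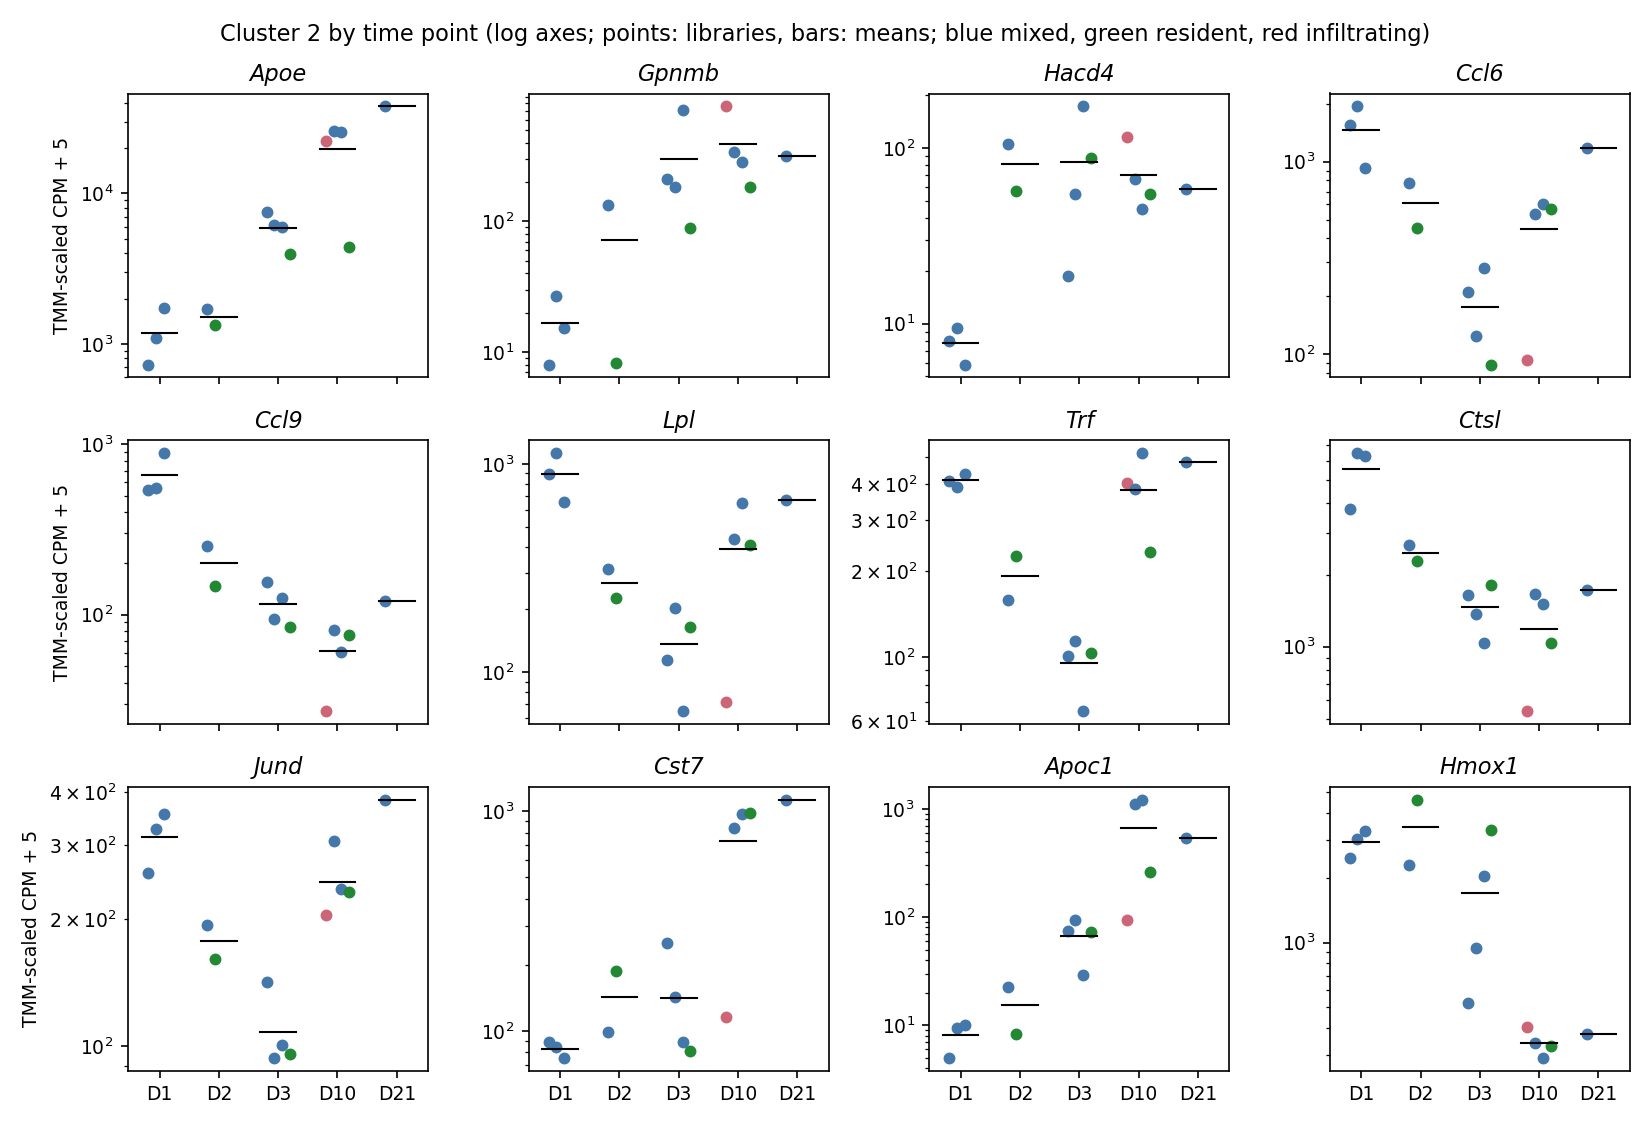
Levels of 12 genes in cluster 2 by time point, as TMM-scaled CPM + 5 on log axes. Points are libraries coloured by sort and bars are means per time point. Apoe and Gpnmb are higher at D3 than at D1 in every library, Ccl6, Ccl9, Lpl, Trf, Ctsl and Jund are lower, and Hmox1 is lower at D10 than at D3.

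The sort could be compared only weakly, with 1 infiltrating library of 21 cells against 3 resident ones, the lone library being assumed to vary like the others. By edgeR 0 of 4965 genes passed (0%), while 334 had an unadjusted p under 0.05 and DESeq2 called 2. With a minimum of 10 cells per library, an alternative added after the data were seen, 96 passed. Mt1 was at 554 CPM in the infiltrating library and at a mean of 1452 CPM in the resident ones (log2 change -0.97, SE 0.79, edgeR adjusted p 0.739), and no other marker gene passed. The infiltrating library is of D10, while the resident ones are of D2, D3 and D10, so these means also differ in time.

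Across time, 3 measures per library were compared over the 8 mixed libraries at D1, D3 and D10 by an exact permutation test with 560 arrangements, adjusted over the 3. The median mitochondrial percent of cluster 2 was 0.681%, 0.771% and 1.27% at D1, 0.141%, 0.271% and 0.286% at D3 and 0.136% and 0.0684% at D10. No 2 time points overlapped, and the means were 0.906%, 0.233% and 0.102% (exact permutation p 0.00714, adjusted 0.0214). With the resident libraries and the D2 libraries added together (12 libraries at 4 time points) the adjusted p was 0.311. Among those added, D3_resident 2 had 1.72%. It was 0.0571 without any 1 of D1_mixed 1, D1_mixed 2, D1_mixed 3 or D3_mixed 2. Without either D10 library it was 0.200, where the smallest p the test allows is 0.1. The median UMI count had means of 1778, 1558 and 1800 (adjusted exact permutation p 0.218). The metallothionein share of UMIs had means of 0.345%, 0.155% and 0.0918% (adjusted exact permutation p 0.218), with 0.583% in D1_mixed 3 and 0.0473% in D3_mixed 3 as the extremes.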

How the data were processed

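Raw UMI counts per gene and cell were deposited by the authors for 25 libraries as whole numbers, with a table of 1 line per cell that gives the cluster and cell type codes, total UMIs and the mitochondrial percent; the percent values were deposited by the authors and equalled those recomputed from 13 transcripts. Cell Ranger 3.1.0, GRCm38 and mm10 are named in the submitters' processing notes, and the cell filters are not given in the sources used here. Sums and detected genes equalled the deposited values for all 30958 cells. All deposited cells were kept, doublets were not called, and no correction for free RNA was made. The members, gene lists and tests were chosen with earlier results of these data known.

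Counts of cluster 2 cells were summed per library (at least 20 cells, 14 libraries) and tested with edgeR 4.0.16 in R 4.3.3 (TMM, quasi-likelihood test with time and sort as terms, Benjamini-Hochberg adjusted p under 0.05). The test was tried on simulated data. CPM of cluster 2 and of other cells of the same library were compared as log2 ratios with 5 CPM added. Cells were thinned to 700 UMIs for shares of cells, and exact Clopper-Pearson intervals at 95% cover counting error only. Genes were named by rule: the 15 highest ratios (20 or more CPM in cluster 2), the 10 lowest (100 or more CPM in other cells), the 3 largest rises and falls per contrast, the 7 markers and members of the lists. Mif, Fth1, Ftl1, Cst3 and the further list members given with values were chosen after their values were seen. Alternatives were DESeq2 1.42.0, median-of-ratios scaling, no expression filter, other covariates, code 1 cells alone, thinning and leaving out libraries. Contrasts with Ctrl could not be made, since no Ctrl cell is in cluster 2. Replicate numbers did not pair the libraries. Promoters are RefSeq windows on GRCm38.p6.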

Additional observations from a re-analysis of the deposited data

Results flagged for a closer look

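For 81 values, Dixon's criterion was applied within the groups of 4 libraries at D3 and at D10. In 20 of them a library lay far from the others of its group. Independent, normally distributed values would meet the criterion for about 1 in 20. The values here are mostly CPM of genes already named, and any count meets it where all other libraries have 0. That rate therefore does not apply here. At D3, D3_mixed 3 stood apart in the share of code 1 (37.5%, others 97.9% to 100%), H2-Aa (2216 CPM), H2-Eb1 (1533 CPM, others 0 to 15.1) and Lyz2 (7931 CPM, others 425 to 1661). D3_resident 2 stood apart in the median mitochondrial percent (1.72%, others 0.141% to 0.286%), Hspb1 (34.1 CPM, others 0), Mbp (420 CPM, others 12 to 54.9) and Mt3 (148 CPM, others 0). Ccl5 was high in D3_mixed 2 (217 CPM) and Jund in D3_mixed 1 (137 CPM, others 89.0 to 95.8).

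At D10, D10_resident 1 had the inflammatory chemokine genes far above the other 3 libraries, with Ccl12 at 6192 CPM (others 71.6 to 130), Ccl4 at 6483 CPM (others 215 to 666) and Ccl3 at 2234 CPM (others 119 to 394). It was also high in Selenoh (128 CPM, others 57.4 to 66.5) and low in Apoe (4412 CPM, others 22467 to 26029). D10_infiltrating 2, with 21 cells, was low in the share of code 1 (85.7%), Ccl6 (88.7 CPM, others 528 to 597) and Cst7 (111 CPM, others 839 to 979), and high in H2-Aa (177 CPM, others 14.2 to 26.8) and H2-Eb1 (155 CPM, others 0 to 19.1).

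The library with conflicting sort labels, D3_conflict 1, held 15 cluster 2 cells among 3800 (0.395%, exact 95% interval 0.221% to 0.650%), of which 11 were of code 2.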

How the results depend on the processing

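Between D1 and D3 the count of 122 genes became 353 with no expression filter, 69 with thinned cells and 304 with code 1 cells alone, and ranged from 48 to 334 on leaving out a library. Between D3 and D10 the count of 23 became 71 by DESeq2, 134 with no filter, 10 with a sex term, 14 with pool in place of sort (3 higher and 11 lower), 14 in mixed libraries alone, 13 with at least 50 cells, 9 thinned, 80 with code 1 alone and, chosen after seeing the data, 39 with at least 10 cells, and from 3 to 87 on leaving out a library. The sort contrast went from 0 to 2 (DESeq2), 37 (no filter) and 96 (at least 10 cells, added later), and to 0 to 1 on leaving out a library. The cause was not tested. The mitochondrial permutation test had an adjusted p of 0.311 with resident and D2 libraries and 0.3 with at least 50 cells (where 0.1 is the smallest p before adjustment, so this says nothing of stability), and 0.0286 to 0.200 on leaving out a library. Apoe, Gpnmb, Ccl6, Ccl9, Ctsl, Jund, Lpl, Trf and Hacd4 kept their D1 to D3 call in each alternative that tested them, while Cst7 and Apoc1 lost that from D3 to D10 in 1 of 27. Other calls were less stable. Of 27 alternatives from D3 to D10, Sparc lost its call in 18, Selenoh in 16, Jund and Rcan1 in 15, Ccl6 in 14, Lpl in 12, Hmox1 and Clec7a in 10, Apoc4 in 4 and Trf in 3. Of 26 from D1 to D3, Gapdh lost it in 16, Ccl12 and Lyz2 in 14, Hexa in 11 and Ccl5 in 9. H2-Aa, H2-Eb1 and C5ar1 lost it in 8, Itgam and Hspd1 in 7, Npy in 6, and Ifi27l2a and Sparc in 3. Of 25, Cxcl3 lost it in 9 and Hspb1 in 5. Against other cells, Ccl3 (-0.12), Ccl4 (-0.24) and Cxcl10 (-0.73) reversed with code 1 on both sides. Replicate numbers did not pair the libraries (correlations of -0.027 to 0.073 between same-numbered libraries). In mixed libraries alone, a replicate block gave 120 and 25 genes, against 128 and 14 without the block. D3_conflict 1 could not be added, having fewer than 20 cells, and no pool term could be fitted between D1 and D3. Most libraries hold under 150 cluster 2 cells, and genes under about 20 CPM rest on few counts.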

Other observations

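Further gene lists were compared between cluster 2 and the other cells of the same 14 libraries, without a test. Of 10 genes of cell stress and p53, 5 had a mean log2 ratio above 0 (median 0.08, and 0.56 with code 1 cells on both sides). Among them Bax, a pore-forming protein gene of apoptosis, was higher in 13 libraries (0.45 ± 0.30, SD), and the cell cycle inhibitor gene Cdkn1a in 13 (0.79 ± 0.50). Ddit3, a transcription factor gene of the unfolded protein response, was higher in 11 (0.55 ± 0.74). The p53 targets Bbc3 and Pmaip1 were at -0.32 and -0.49. Of 11 housekeeping and cytoskeleton genes, 7 were above 0 and 4 below (median 0.32), with the actin-binding protein genes Pfn1 and Cfl1 higher in 14 of 14 libraries (0.54 ± 0.33 and 0.60 ± 0.36).

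Heat shock genes lay close to the other cells, with 4 of 9 above 0 (median -0.06), Hspa1a at 0.02 and Hspa1b at -0.11. Immediate early genes were above 0 in 2 of 14 (median -0.25, and -0.03 with code 1 cells on both sides), with Jun at -0.98 and Egr1 at -0.51. Of 12 cytokine and NF-kB genes 3 were above 0 (median -0.49), and the adhesion molecule gene Icam1 was lower in cluster 2 at -1.30 ± 0.91 and the inhibitor gene Nfkbiz at -0.73 ± 0.53. Among cell cycle genes, Birc5 (-1.94 ± 0.90) and Ube2c (-2.34 ± 0.98) were higher in 0 of 14 libraries.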
